A study of Mus musculus with 12 samples.

Results

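The genes described here are 51 members of the TGF-beta, activin and BMP signalling system, chosen by name from a list of ligands, receptors, Smads, extracellular modulators and target genes. They were matched by mouse symbol, and each of the 51 matched 1 of the 49315 genes counted. RNA was measured in cultured mouse cells labelled as primary Müller glia, which span and support the neural retina, grown across a transwell membrane from primary retinal pigment epithelial (RPE) cells. The study asks whether an α7 nicotinic receptor agonist, given to the RPE, can set off reprogramming of the glia. The 12 libraries form 4 groups of 3: glia kept with RPE treated with 100 nM PNU-282987 (PNU below) for 2 h or for 6 h, and glia kept with RPE given the solvent DMSO for 2 h or for 6 h. All cells came from wild-type mice, both cultures were passaged before use, and no age is given. The labels state 0.1% DMSO in one place and 1% in another. They call the libraries biological replicates without saying whether each came from its own animal or culture, so the p-values reflect only how these 12 libraries vary.

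Ligands of this family are secreted as dimers and bind pairs of type I and type II receptor kinases. TGF-beta and activin receptors mainly phosphorylate Smad2 and Smad3, BMP receptors mainly Smad1, Smad5 and Smad9, and either group joins Smad4 to regulate genes in the nucleus. Secreted binding proteins, inhibitory Smads and corepressors restrain the signal, and several of these are themselves targets of it. In the retina the family is known for its part in glial scarring and in the responses of Müller glia to injury.

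The regulatory sequence just before the start site of 5 members is shown, because these members carry the results below: Smad3, Inhbb and Kcp passed the test for PNU against DMSO, Id4 passed for time, and Ltbp1 had the widest fold range among the latent binding proteins. Each line gives 250 bases 5′ to 3′ on the gene's own strand, from RefSeq (GRCm38.p6), and no window overlaps an exon annotated in GENCODE M21. Capitals mark GGCGCC, a GC-rich motif bound by BMP-type Smads, and CAGAC, the core of a Smad-binding element, searched on both strands and so also marked as GTCTG. The GC-rich motif reads the same on both strands, and its last base can be the first of the other.
Id4 (chr13:48260866-48261115, plus strand): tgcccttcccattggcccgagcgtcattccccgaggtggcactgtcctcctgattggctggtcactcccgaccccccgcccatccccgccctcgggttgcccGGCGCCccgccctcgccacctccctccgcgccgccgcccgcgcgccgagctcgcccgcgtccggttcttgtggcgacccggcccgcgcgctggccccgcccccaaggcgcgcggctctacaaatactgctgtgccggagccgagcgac
Ltbp1 (chr17:75005279-75005528, plus strand): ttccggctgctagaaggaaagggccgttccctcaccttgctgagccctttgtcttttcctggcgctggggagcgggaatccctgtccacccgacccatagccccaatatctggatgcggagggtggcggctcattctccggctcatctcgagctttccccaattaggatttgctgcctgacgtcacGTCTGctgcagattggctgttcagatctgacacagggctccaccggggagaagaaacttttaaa
Smad3 (chr9:63757995-63758244, minus strand): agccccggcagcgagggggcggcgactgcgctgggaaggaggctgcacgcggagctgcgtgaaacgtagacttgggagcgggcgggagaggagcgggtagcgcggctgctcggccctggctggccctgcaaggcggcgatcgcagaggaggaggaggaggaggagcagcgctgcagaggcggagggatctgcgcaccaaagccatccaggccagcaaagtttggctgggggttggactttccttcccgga
Inhbb (chr1:119422249-119422498, minus strand): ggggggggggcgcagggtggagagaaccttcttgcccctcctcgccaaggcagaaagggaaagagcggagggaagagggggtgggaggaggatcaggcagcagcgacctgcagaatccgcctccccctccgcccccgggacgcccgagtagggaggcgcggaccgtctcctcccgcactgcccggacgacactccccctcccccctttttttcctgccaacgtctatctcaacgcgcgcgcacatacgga
Kcp (chr6:29507953-29508202, minus strand): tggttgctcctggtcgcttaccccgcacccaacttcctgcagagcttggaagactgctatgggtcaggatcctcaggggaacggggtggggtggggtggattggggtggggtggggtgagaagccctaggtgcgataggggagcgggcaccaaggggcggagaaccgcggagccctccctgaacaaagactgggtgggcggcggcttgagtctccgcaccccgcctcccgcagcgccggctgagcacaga
The Id4 window holds 1 GGCGCC that begins 148 bases before the start, and the Ltbp1 window holds 1 GTCTG that begins 64 bases before it. Neither set of letters occurs in the windows of Smad3, Inhbb and Kcp. Ltbp4 and Fstl4, which also passed for PNU against DMSO, are not printed. Of these, Ltbp4 holds GGCGCC and Fstl4 holds CAGAC in at least 1 window. Among 32851 windows of this length, 9.59% hold GGCGCC and 42.2% hold CAGAC on either strand. Of the 36 members with an entry, 11 hold GGCGCC and 17 hold CAGAC in at least 1 of their windows, a count per gene that several windows for 1 gene can raise.

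Library totals ran from 44332013 to 66518799 counts, so that 3 counts, taken as the floor of detection, equal 0.0451 to 0.0677 CPM (counts relative to the total of each library), for counting error only. The label was checked against marker genes fixed by cell type. Vim, found in glia and in mesenchymal cells, stood at 6063 to 7451 CPM and Glul, glutamine synthetase, at 61.5 to 94.4 CPM. Sox9, also on the Müller glia list, stood at 63.4 to 292 CPM, with every PNU library above DMSO at 2 h and below it at 6 h. Rlbp1 and Aqp4, on the same list, did not exceed 0.302 and 0.218 CPM. Only 4 of 12 Müller glia markers had a median over 1 CPM, against 8 of 9 fibroblast and 7 of 9 pericyte or smooth muscle markers, with Col1a1 at 3509 to 4895 CPM and Acta2 at 1502 to 2405 CPM. The summed pericyte or smooth muscle markers were higher facing PNU than facing DMSO at both times, with 4425 to 4838 against 3385 to 4296 CPM at 2 h and 4261 to 4389 against 3485 to 3542 CPM at 6 h. Acta2 was the largest part of this sum, and not all markers followed it. Pdgfrb and Myh11 overlapped at both times, with Pdgfrb at 1391, 944 and 970 CPM in PNU against 1184, 1183 and 1169 CPM in DMSO at 6 h. Acta2, Tagln and Col1a1 are also among the TGF-beta and activin targets of the further list below. The fibroblast markers summed to 12757 to 14508 CPM in PNU against 13713 to 17580 CPM in DMSO at 2 h, and to 15008 to 16028 against 15346 to 15408 CPM at 6 h. Collagen genes make up most of this sum. At 6 h Postn (129.9, 46.2 and 49.5 against 276, 277 and 285 CPM), Dcn and Lum were below DMSO in every PNU library. Col1a1 and Thy1 were above DMSO in every PNU library at 6 h, and the other fibroblast markers overlapped. The 12 Müller glia markers summed to 7398 to 7679 CPM in PNU against 6222 to 7316 CPM in DMSO at 2 h and overlapped at 6 h, and 6 retinal neuron markers summed to 39.0 to 39.4 against 20.8 to 31.1 CPM at 2 h and to 31.9 to 58.4 against 20.8 to 23.7 CPM at 6 h. Vim makes up most of the Müller glia sum. Sox2, a Müller glia marker, stood at 8.27 to 9.39 CPM in replicates 2 and 3 of PNU at both times and at no more than 0.243 CPM in the other 8 libraries, and Prox1, on the neuron list, stood at 2.87 to 5.13 CPM in the same 4 libraries and at no more than 0.177 CPM elsewhere. The part of these cell markers in the results below was not tested, and in bulk RNA fewer cells of a type and less RNA per cell cannot be told apart.

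Libraries of 1 group were not equally alike. All 3 DMSO libraries at 6 h, replicates 2 and 3 of PNU at 2 h and replicates 2 and 3 of PNU at 6 h had pairwise coefficients of variation of 0.0163 to 0.0223, against 0.150 to 0.382 for the other pairs within groups. Their counts still differed beyond sampling noise (chi-square per gene 2.02 to 3.22), and they were kept as separate libraries. That difference does not show that they are separate samples: whether they are technical repeats of 1 sample was not tested. If they are, n would be 1 in DMSO at 6 h and 2 in each PNU group, so results with them summed are given as well. A pair of libraries stood apart from their groups. Replicate 3 of DMSO at 2 h was nearer to the PNU mean of its time for 41 of 49 tested members (83.7%, against 76.5% of all tested genes, on log2(CPM + 1) with the pseudocount 1). Replicate 1 of PNU at 6 h was nearer to the DMSO mean of its time for 27 of 49 members (55.1%, against 62.1% of all). The Y-linked gene Ddx3y also split libraries within groups, standing at 0.0338, 0.0386 and 5.00 CPM in DMSO at 2 h, at 2.23, 0.0870 and 0.0150 CPM in PNU at 2 h, at 0.0451, 0.0378 and 0.141 CPM in DMSO at 6 h and at 0.141, 7.43 and 6.74 CPM in PNU at 6 h. Xist, the X-inactivation RNA, did not mirror it: replicates 2 and 3 of PNU at 6 h held the highest Xist, at 2.46 and 2.13 CPM, and the other libraries held 0.0469 to 1.23 CPM. Results are therefore given with both libraries that stand apart and, where they rest on them, without. Both were picked from these data for standing nearer the other treatment, so leaving them out by itself tends to widen the gap between groups. At 6 h only near-identical libraries then remain in each group. If these are repeats, the p-values without both do not measure variation between samples at 6 h, however small they are.

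Most of the members were expressed. In every library 43 of the 51 exceeded 1 CPM, 32 exceeded 10 CPM and 8 exceeded 100 CPM, while Gdf5 and Gdf10, which encode growth and differentiation factors, stayed under 1 CPM throughout. Per length of exon (RPKM, the CPM per kilobase of exon), Fstl1, a secreted follistatin-like glycoprotein, had the highest median level of the members at 449 RPKM. It was followed by Id3 at 129, Ltbp3 at 124, and Id1 and Inhba at 101 RPKM each. Inhbb at 1.14, Fstl4 at 0.245 and Kcp at 0.460 RPKM, each of which passed a test below, lay near the lower end of the order.

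**Figure D1:**
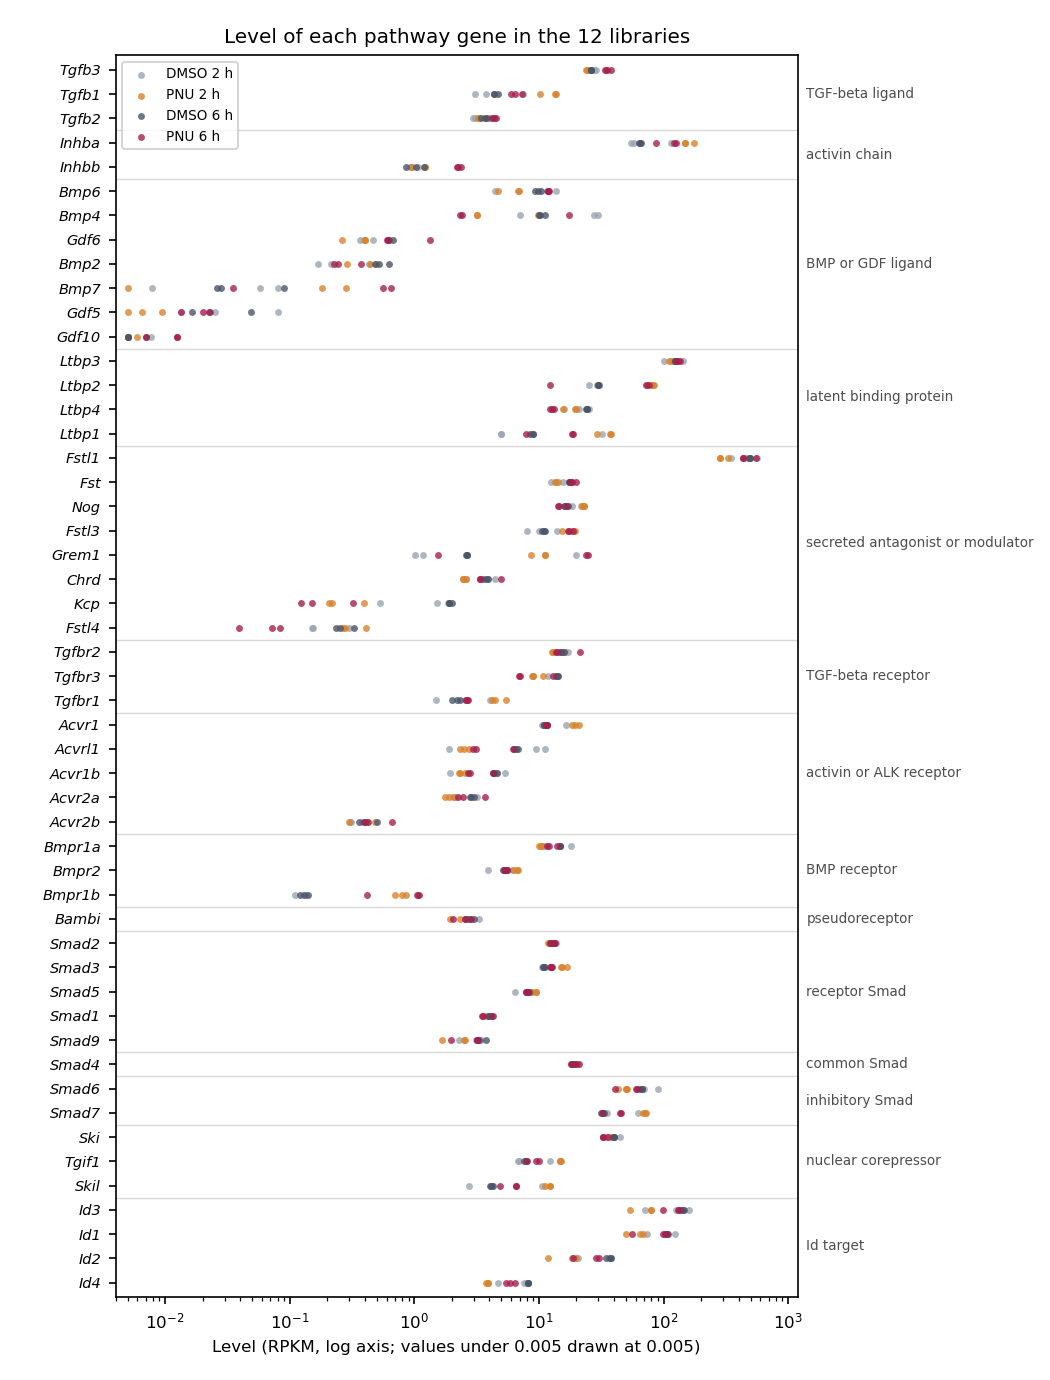
Level of each of the 51 members per length of exon (RPKM, log scale, horizontal) in the 12 libraries, 1 row per member ordered by role, with colours for the 4 groups. Fstl1 lies at the right, with a median of 449 RPKM, and Gdf10 and Gdf5 lie at the left; most members differ more between genes than between libraries.

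At 2 h, 1 of 49 tested members passed the test for PNU against DMSO and at 6 h 4 did (edgeR's quasi-likelihood test, Benjamini-Hochberg adjusted p under 0.05 over all 17164 genes tested). Smad3 rose at 2 h, and at 6 h Inhbb rose while Kcp, Fstl4 and Ltbp4 fell. Among all genes tested, 0.291% passed at 2 h (0.210% up and 0.0816% down) and 1.05% at 6 h (0.571% up and 0.484% down). At an unadjusted p under 0.05 stood 23 members at 2 h (46.9%, against 30.0% of all genes), 12 of them higher and 11 lower in PNU, and 15 members at 6 h (30.6%, against 15.6%). All 3 PNU libraries lay on 1 side of all 3 DMSO libraries for 19 members at 2 h (11 above and 8 below), or 38.8% against 22.7% of all genes (9.06% above and 13.6% below), and for 26 members at 6 h (12 above and 14 below), or 53.1% against 34.9% (14.1% and 20.8%). The median log2 difference of the members was 0.05 at 2 h and 0.06 at 6 h, and their median absolute difference was 0.52 and 0.29, against 0.28 and 0.18 over all genes.

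These counts rested on few libraries. With the near-identical libraries summed and counted once, which leaves 1 unit in DMSO at 6 h, 0 members passed in edgeR at either time, and 13 and 4 stood at an unadjusted p under 0.05, as did 8.08% and 1.45% of all genes. Without both libraries that stand apart, 36 members passed at 2 h (18 higher and 18 lower), but so did 52.2% of all genes, and 24 passed at 6 h (14 and 10), with 28.6% of all genes. With DESeq2, 16 members passed at 2 h (7.40% of all genes it was run on) and 7 at 6 h (2.65%). DESeq2 was run on 32662 genes, those of low count included, and edgeR on 17164. Its shares of all genes, here and below, are therefore not on the same basis as those of edgeR, and most members are expressed. Its 2 h calls were Tgfb1, Inhba, Tgfbr1, Acvr1, Acvrl1, Smad3, Smad7, Skil, Tgif1, Fstl1, Fstl3, Kcp and the 4 Id genes, and its 6 h calls were Tgfb3, Inhba, Inhbb, Ltbp4, Fstl3, Fstl4 and Kcp.

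**Figure D2:**
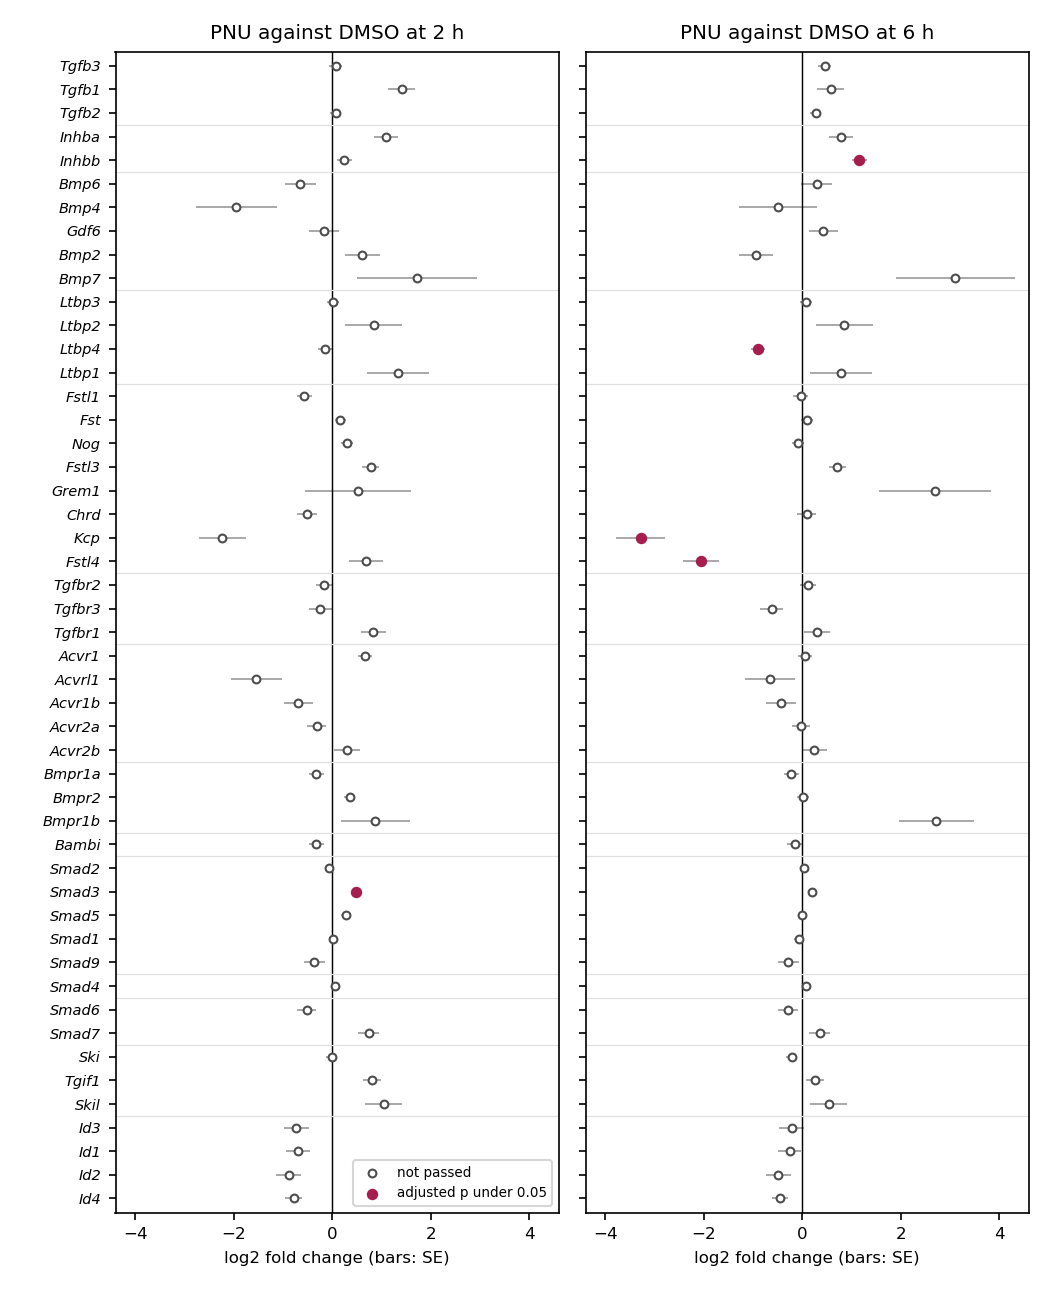
Log2 difference, PNU against DMSO, for the 49 tested members at 2 h and at 6 h, with bars for the standard error; filled marks passed the test at an adjusted p under 0.05. Smad3 at 2 h and Inhbb, Kcp, Fstl4 and Ltbp4 at 6 h are the filled marks.

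Among the TGF-beta ligands, none of the 3 genes passed in edgeR for PNU against DMSO at either time, although all 3 had their 6 h PNU libraries above their DMSO libraries. Tgfb1, the most widely used TGF-beta ligand, stood at 19.0, 15.3 and 37.9 CPM in the DMSO libraries at 2 h and at 51.5, 67.4 and 69.7 CPM in the PNU libraries. The levels at 6 h were 21.8, 23.5 and 22.2 CPM against 30.3, 32.4 and 36.8 CPM. The groups did not overlap at either time, and the third DMSO library at 2 h was the highest of its group. In edgeR the log2 difference was 1.41 ± 0.27 (SE) at 2 h (adjusted p = 0.0583) and 0.57 ± 0.27 at 6 h (adjusted p = 0.335). Without both libraries that stand apart, it was 1.90 at 2 h (adjusted p = 7.4e-07) and 0.63 at 6 h (adjusted p = 0.00353).

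Tgfb2 and Tgfb3, the other TGF-beta ligands, differed less. Tgfb2 stood at 17.0, 23.4 and 17.8 CPM in DMSO and 21.4, 19.2 and 18.8 CPM in PNU at 2 h, and at 19.7, 21.2 and 22.3 against 24.2, 25.0 and 26.1 CPM at 6 h. For Tgfb3 the levels were 84.7, 93.8 and 96.8 against 118, 82.0 and 81.5 CPM at 2 h, and 88.8, 88.3 and 88.4 against 128, 119 and 114 CPM at 6 h. The libraries of both genes overlapped at 2 h and were apart at 6 h, where the log2 differences were 0.27 ± 0.11 and 0.45 ± 0.13 (edgeR, adjusted p = 0.266 and 0.126).

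The activin chains held the only member that rose at 6 h. Inhbb, which encodes the beta B chain of activin B, stood at 4.35, 3.63 and 5.11 CPM in DMSO at 6 h and at 9.56, 9.28 and 10.1 CPM in PNU, from 192 to 290 counts and from 544 to 642 counts per library. The 2 h levels were 4.56, 4.00 and 3.93 CPM in DMSO and 4.11, 5.20 and 5.19 CPM in PNU. Only the PNU libraries at 6 h lay apart from the rest, and replicate 1, which stands apart over all genes, lay with its group here. Inhbb rose at 6 h by 1.16 ± 0.16 on the log2 scale (edgeR, adjusted p = 0.00627), and passed in 18 of 20 alternatives, though not with near-identical libraries summed (adjusted p = 1.00) nor without replicate 2 of DMSO at 6 h (0.0541). The difference at 2 h was 0.25 ± 0.16 (adjusted p = 0.290).

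Inhba, the beta A chain that forms activin A, was far more abundant. Its levels at 2 h were 109, 114 and 227 CPM in DMSO and 347, 294 and 293 CPM in PNU. At 6 h they were 130.2, 129 and 127 CPM against 173, 249 and 239 CPM. PNU libraries lay above DMSO libraries at both times, with log2 differences of 1.09 ± 0.25 and 0.79 ± 0.25 that did not pass in edgeR (adjusted p = 0.0630 and 0.150). Without both libraries that stand apart, Inhba differed by 1.52 (adjusted p = 1e-07) and 0.94 (adjusted p = 7.65e-06).

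BMP and GDF ligands did not pass for PNU at either time, in edgeR or in DESeq2, in 5 tested genes. Bmp4, a main BMP ligand of the developing eye, stood at 66.1, 61.7 and 15.7 CPM in DMSO at 2 h and at 22.1, 7.12 and 7.05 CPM in PNU. The 6 h levels were 22.9, 22.5 and 25.0 CPM in DMSO and 38.7, 5.38 and 5.20 CPM in PNU. The groups overlapped at both times, because the third DMSO library at 2 h was low and the first PNU library was high at each time. Log2 differences were -1.95 ± 0.82 and -0.50 ± 0.80 (edgeR, adjusted p = 0.146 and 0.811), and -2.38 and -2.13 without both libraries that stand apart (adjusted p = 0.00411 and 0.0216). The standard deviation of Bmp4 among PNU libraries at 6 h, 19.3 CPM, exceeded their mean of 16.4 CPM.

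Of the remaining BMP and GDF ligands, Bmp6 stood between 10.7 and 32.8 CPM, Bmp2 between 0.598 and 2.24 CPM, and Gdf6 between 0.928 and 4.74 CPM. Bmp7 stood at 0 to 0.359 CPM in 8 libraries, and at 1.13 and 0.737 CPM in replicates 2 and 3 of PNU at 2 h and at 2.61 and 2.26 CPM in the same replicates at 6 h, the 4 libraries that also held Sox2 and Prox1; the part of these in the level of Bmp7 was not tested. Gdf6 is given with the comparison over time, where it passed.

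Some of the latent TGF-beta binding proteins tie TGF-beta to the matrix, and 1 of the 4 genes passed. Ltbp4, which holds latent TGF-beta in elastic fibres, stood at 155, 157 and 156 CPM in DMSO at 6 h and at 79.6, 82.1 and 86.0 CPM in PNU. At 2 h the levels were 163, 135 and 103 against 101, 125 and 129 CPM. PNU libraries at 6 h were all below DMSO libraries, while those at 2 h overlapped. Ltbp4 fell by 0.90 ± 0.15 on the log2 scale at 6 h (edgeR, adjusted p = 0.0183), and the difference at 2 h was -0.15 ± 0.15 (adjusted p = 0.505). It passed in 14 of 20 alternatives, and was lost without any 1 DMSO library at 6 h or without replicate 2 or 3 of PNU at 6 h (adjusted p from 0.0744 to 0.0942).

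Ltbp1, which anchors latent complexes in fibrillar matrix, and Ltbp2, a matrix protein of the same family, varied most within groups. Ltbp1, whose upstream window is printed above, stood at 52.3, 52.1 and 338 CPM in DMSO and 306, 389 and 399 CPM in PNU at 2 h, and at 89.5, 93.2 and 93.9 against 82.0, 196 and 194 CPM at 6 h. Ltbp2 stood at 239, 206 and 669 against 602, 659.7 and 689.6 CPM at 2 h, and at 250.0, 242 and 243 against 101, 590.5 and 621 CPM at 6 h. In both genes the third DMSO library at 2 h lay at the PNU level and the first PNU library at 6 h lay below the DMSO level. Ltbp1 differed by 1.34 ± 0.63 at 2 h and 0.78 ± 0.63 at 6 h (edgeR, adjusted p = 0.182 and 0.598), and by 2.84 and 1.09 without both libraries (adjusted p = 5.25e-09 and 5.69e-06). Ltbp2 differed by 0.84 ± 0.58 and 0.85 ± 0.58 (adjusted p = 0.334 and 0.525), and by 1.58 and 1.32 without both. Ltbp3 stood between 521 and 740.4 CPM and overlapped at both times.

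**Figure D3:**
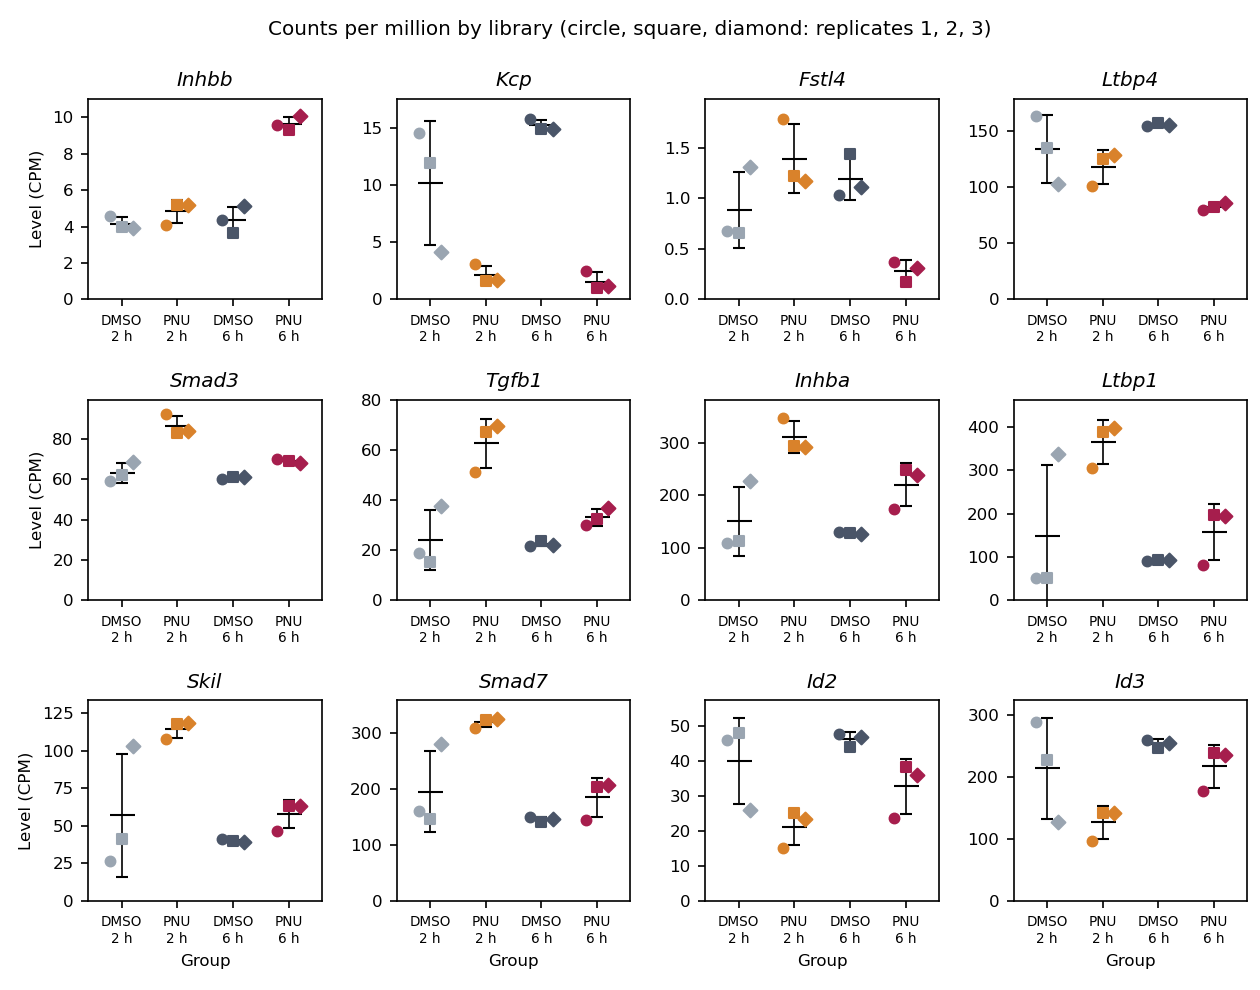
Levels in CPM (vertical, linear from 0) of single members in each library, by group (horizontal), with points for libraries and bars for the mean and SD of 3 libraries. Inhbb is raised in the 3 PNU libraries at 6 h alone, at 9.28 to 10.1, and Kcp is low in every PNU library, at 0.964 to 3.07; where an SD exceeds its mean, the lower bar ends at 0.

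None of the 11 receptor genes passed for PNU against DMSO in edgeR. At an unadjusted p under 0.05 stood 5 of 11 at 2 h and 2 of 11 at 6 h, against 30.0% and 15.6% of all genes. DESeq2 called Tgfbr1, Acvr1 and Acvrl1 at 2 h and 0 at 6 h, with 7.40% and 2.65% of the genes it was run on. Tgfbr1, the type I TGF-beta receptor, stood at 9.81, 16.6 and 26.6 CPM in DMSO and 35.7, 29.0 and 27.2 CPM in PNU at 2 h, and at 13.0, 15.2 and 14.3 against 16.9, 17.8 and 17.2 CPM at 6 h. The PNU libraries lay above at both times, by log2 differences of 0.84 ± 0.26 and 0.30 ± 0.26 (edgeR, adjusted p = 0.0834 and 0.626). Tgfbr2, the type II receptor, stood at 139.9, 133 and 119 against 130.0, 104 and 106 CPM at 2 h, and at 123, 122 and 129 against 175, 111 and 114 CPM at 6 h. It overlapped at both times, and its log2 difference at 6 h of 0.11 ± 0.16 took the other sign, -0.13, without replicate 1 of PNU at 6 h.

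Tgfbr3, the co-receptor betaglycan, stood at 77.4, 92.9 and 57.8 against 70.5, 58.5 and 58.7 CPM at 2 h and at 92.3, 90.3 and 91.6 against 84.8, 45.8 and 45.7 CPM at 6 h. It was lower in every PNU library at 6 h (log2 difference -0.62 ± 0.23, edgeR adjusted p = 0.220; -0.99 and 1.4e-05 without both libraries that stand apart). Acvr1, a type I receptor for BMPs and activins, stood at 51.1, 52.0 and 79.2 against 89.0, 93.6 and 100.4 CPM at 2 h, and at 52.9, 53.4 and 56.1 against 55.3, 55.7 and 56.1 CPM at 6 h. Its PNU libraries lay above at 2 h (0.67 ± 0.14, adjusted p = 0.0583) and overlapped at 6 h (0.06 ± 0.14, adjusted p = 0.883).

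Acvrl1, a type I receptor best known in endothelium, stood at 47.4, 40.7 and 8.04 CPM in DMSO and 9.85, 10.6 and 11.7 CPM in PNU at 2 h, and at 27.7, 28.8 and 27.1 against 26.4, 13.4 and 12.6 CPM at 6 h. The third DMSO library at 2 h was the lowest of all 12, and the first PNU library at 6 h lay near the DMSO level. Differences of -1.54 ± 0.51 and -0.66 ± 0.50 did not pass (edgeR, adjusted p = 0.0924 and 0.574), and without both libraries they were -2.00 and -1.09 (adjusted p = 3.87e-08 and 1.46e-05). Of 7 endothelial markers 0 had a median over 1 CPM, Cldn5 had a median of 0, and Pecam1 and Cdh5 did not exceed 0.351 and 0.373 CPM. The 7 summed to 1.51 to 3.17 CPM, with 2.62 to 3.17 CPM in PNU and 1.51 to 2.11 CPM in DMSO at 6 h.

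Acvr1b, the activin type I receptor, stood between 8.57 and 23.6 CPM, and the activin type II receptors Acvr2a and Acvr2b stood at 10.0 to 21.1 and 1.17 to 2.62 CPM. Among the BMP receptors, the type I receptor Bmpr1a stood at 68.2, 115 and 70.9 against 66.0, 66.5 and 63.9 CPM at 2 h and at 93.1, 94.1 and 93.1 against 88.5, 75.9 and 73.3 CPM at 6 h. Its PNU libraries were below at both times, by -0.33 ± 0.15 and -0.22 ± 0.15 (edgeR, adjusted p = 0.170 and 0.516). The type II receptor Bmpr2 stood at 70.3, 112 and 101 against 111, 119 and 122 CPM at 2 h and between 93.3 and 100.3 CPM in all 6 libraries at 6 h. Bmpr1b, another type I receptor, stood at 0.722 to 0.832 CPM in DMSO and at 2.49, 6.47 and 6.25 CPM in PNU at 6 h, without overlap, and differed by 2.72 ± 0.76 (adjusted p = 0.121). At 2 h Bmpr1b overlapped, since the third DMSO library, at 6.33 CPM, was above all PNU libraries.

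Of the 5 receptor Smads, Smad3 passed. Smad3, a main carrier of TGF-beta and activin signals to the nucleus, stood at 59.1, 62.2 and 68.7 CPM in DMSO at 2 h and at 92.3, 83.3 and 84.1 CPM in PNU. The 6 h levels were 60.2, 61.3 and 61.0 against 70.1, 69.2 and 68.0 CPM. PNU libraries lay above DMSO libraries at both times, and the third DMSO library at 2 h stayed with its group. Smad3 rose by 0.49 ± 0.08 on the log2 scale at 2 h (edgeR, adjusted p = 0.0327), and the difference at 6 h was 0.20 ± 0.08 (adjusted p = 0.231). The 2 h call held in 9 of 20 alternatives. It was lost when any 1 of 9 libraries was left out (edgeR, adjusted p from 0.0724 to 0.180), DMSO and PNU at 6 h among them. It was also lost with the 2 h libraries alone, without those at 6 h, and with near-identical libraries summed.

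Smad2, the partner of Smad3, stood at 42.3 to 48.6 CPM, Smad4, shared by both branches, at 66.8 to 77.5 CPM, and the BMP-type Smad1 and Smad5 at 21.9 to 26.8 and 47.6 to 70.3 CPM. For Smad5 the PNU libraries at 2 h, at 65.4 to 70.3 CPM, lay above the DMSO libraries, at 47.6 to 64.3 CPM, with a log2 difference of 0.28 ± 0.09 (edgeR, adjusted p = 0.0892; 0.36 and 0.00202 without both libraries that stand apart). Smad9, the third BMP-type Smad, stood at 8.99 to 20.2 CPM. The inhibitory Smads, both of which are targets as well as brakes of the signal, lay in opposite directions at 2 h without passing. Smad7, which blocks TGF-beta and BMP receptors, stood at 160.4, 147 and 280.1 against 310.2, 323 and 326 CPM at 2 h and at 149.7, 142 and 147 against 145, 203 and 208 CPM at 6 h. Smad6, which mainly restrains BMP signals, stood at 289, 224 and 161 against 139, 162 and 159 CPM at 2 h and at 217, 208 and 215 against 131, 192 and 198 CPM at 6 h. For Smad7 only the 2 h groups were apart (0.74 ± 0.21, edgeR adjusted p = 0.0763; at 6 h 0.36 ± 0.21, 0.460), and for Smad6 only the 6 h groups (-0.29 ± 0.20, 0.527; at 2 h -0.52 ± 0.20, 0.117).

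Secreted antagonists and modulators held both remaining calls, among 8 genes tested. Kcp, a secreted protein with chordin-type repeats that is known to enhance BMP and restrain TGF-beta signals, stood at 15.8, 15.0 and 14.9 CPM in DMSO at 6 h and at 2.51, 0.964 and 1.18 CPM in PNU, from 62 to 143 counts in the PNU libraries. The 2 h levels were 14.6, 11.9 and 4.11 CPM against 3.07, 1.61 and 1.70 CPM. PNU libraries were below DMSO libraries at both times, and the third DMSO library at 2 h lay between the other DMSO libraries and the PNU group. Kcp fell by 3.28 ± 0.49 on the log2 scale at 6 h (edgeR, adjusted p = 0.0127), the largest fall of a member there, and differed by -2.23 ± 0.48 at 2 h (adjusted p = 0.0583). The 6 h call was lost in 6 of 20 alternatives, among them the omission of any 1 DMSO library at 6 h or of replicate 2 or 3 of PNU at 6 h (adjusted p from 0.0577 to 0.0825). Exons of Kcp share 168 and 95 bases with a pair of antisense genes, Atp6v1fnb and Gm26627, both at medians under 0.064 CPM.

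Fstl4, a follistatin-like secreted protein, stood at 1.04, 1.44 and 1.11 CPM in DMSO at 6 h and at 0.369, 0.171 and 0.314 CPM in PNU, which is 46 to 76 counts against 11 to 21 counts. At 2 h the levels were 0.676, 0.656 and 1.31 CPM against 1.79, 1.22 and 1.17 CPM. The groups were apart at 6 h, with PNU below, and overlapped at 2 h. Fstl4 fell by 2.05 ± 0.37 at 6 h (edgeR, adjusted p = 0.0258), and the difference at 2 h was 0.69 ± 0.34 (adjusted p = 0.194). The 6 h call was lost without any 1 DMSO library at 6 h or without replicate 2 or 3 of PNU at 6 h (adjusted p from 0.0958 to 0.145).

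Grem1, a secreted BMP antagonist, had the widest spread of the modulators. It stood at 4.24, 4.90 and 82.4 CPM in DMSO and 35.9, 46.5 and 46.4 CPM in PNU at 2 h. At 6 h the levels were 11.0, 11.0 and 10.8 CPM against 6.46, 104 and 99.8 CPM. The third DMSO library at 2 h held more Grem1 than any PNU library of its time, and the first PNU library at 6 h held less than any DMSO library. Log2 differences were 0.52 ± 1.07 and 2.69 ± 1.14 (edgeR, adjusted p = 0.763 and 0.286). Without both libraries, a fit with the limits given above, they were 3.27 and 3.23 (edgeR, adjusted p = 5e-09 and 2.44e-09).

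The remaining modulators did not pass for PNU. Fst, follistatin, which binds activins, stood at 29.4, 32.2 and 36.4 against 42.0, 33.4 and 31.8 CPM at 2 h and at 42.2, 41.1 and 41.0 against 46.0, 41.8 and 43.4 CPM at 6 h, overlapping at both times. Fstl3, a further activin binder, lay above DMSO in all PNU libraries, with means of 43.6 ± 5.17 against 26.0 ± 7.29 CPM at 2 h and 43.4 ± 2.05 against 26.8 ± 0.59 CPM at 6 h (SD, n = 3). Its log2 differences were 0.78 ± 0.17 and 0.71 ± 0.17 (edgeR, adjusted p = 0.0589 and 0.0731). Antisense exons of Prss57, at a median of 0.191 CPM, cover 47.3% of the Fstl3 exons, and the strand setting of the counting is unstated in the labels. Fstl1 stood at 2260.3, 2783 and 1697 against 1628, 1407 and 1394 CPM at 2 h and at 2403, 2433 and 2408 against 2714, 2147 and 2148 CPM at 6 h. The BMP antagonists Nog (noggin) and Chrd (chordin) stood between 24.1 and 39.2 and between 14.3 and 29.2 CPM. Bambi, a pseudoreceptor without a kinase, stood at 16.8, 13.6 and 13.7 against 9.81, 11.7 and 12.9 CPM at 2 h and at 14.2, 13.1 and 15.3 against 10.4, 12.9 and 14.5 CPM at 6 h, with differences of -0.33 ± 0.15 and -0.16 ± 0.15 (edgeR, adjusted p = 0.172 and 0.667).

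The nuclear corepressors Skil and Tgif1 had their PNU libraries above their DMSO libraries at both times, without passing. Skil, which encodes SnoN and is itself a TGF-beta target, stood at 26.5, 41.0 and 103 against 108, 118 and 118 CPM at 2 h and at 41.5, 40.0 and 39.4 against 46.8, 63.0 and 63.4 CPM at 6 h. Its differences were 1.05 ± 0.37 and 0.53 ± 0.37 (edgeR, adjusted p = 0.104 and 0.536). Tgif1, which represses Smad2 and Smad3 targets, stood at 38.2, 39.3 and 69.2 against 83.3, 84.0 and 83.6 CPM at 2 h and at 44.7, 42.6 and 44.0 against 45.0, 56.5 and 53.6 CPM at 6 h (0.81 ± 0.19 and 0.25 ± 0.19, adjusted p = 0.0636 and 0.564). Ski, a relative of SnoN, stood between 182 and 248 CPM.

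The 4 Id genes, which encode inhibitors of basic helix-loop-helix factors and are classic BMP targets, all had lower means in PNU at both times, and 0 of 4 passed in edgeR. All 4 stood at an unadjusted p under 0.05 at 2 h, and Id4 alone did at 6 h. Id1 stood at 143, 119.8 and 86.2 CPM in DMSO and 57.5, 79.2 and 74.7 CPM in PNU at 2 h, and at 127, 120.2 and 120.4 against 65.4, 123 and 116 CPM at 6 h. Id2 stood at 46.0, 48.2 and 26.0 against 15.2, 25.0 and 23.3 CPM at 2 h, and at 47.9, 44.1 and 47.0 against 23.8, 38.3 and 36.2 CPM at 6 h. At 2 h the lowest DMSO value of both genes was that of the third library, which still lay above every PNU library.

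Id3 stood at 289, 227 and 128 against 96.1, 142 and 142 CPM at 2 h, where the groups overlapped, and at 261, 247 and 255 against 177, 239.9 and 235 CPM at 6 h, where they did not. Id4, which has a GGCGCC in its printed window, stood at 13.3, 12.6 and 7.87 against 6.45, 6.44 and 6.22 CPM at 2 h, and at 13.6, 13.5 and 13.7 against 9.05, 9.79 and 10.7 CPM at 6 h, apart at both times. The first PNU library at 6 h was the lowest of its group for all 4 Id genes. Log2 differences at 2 h were -0.70 ± 0.23 for Id1, -0.89 ± 0.25 for Id2, -0.73 ± 0.25 for Id3 and -0.79 ± 0.17 for Id4 (edgeR, adjusted p = 0.0929, 0.0754, 0.0975 and 0.0583). At 6 h they were -0.26, -0.49, -0.21 and -0.45 (adjusted p = 0.641, 0.378, 0.736 and 0.216). Without both libraries that stand apart, the 2 h differences were -0.87, -1.11, -0.99 and -0.99, with adjusted p from 2.35e-06 to 0.00027, in a fit where 52.2% of all genes passed, and at 6 h Id4 passed (-0.40, adjusted p = 0.00432) while Id1 stood at -0.02 (0.914).

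**Figure D4:**
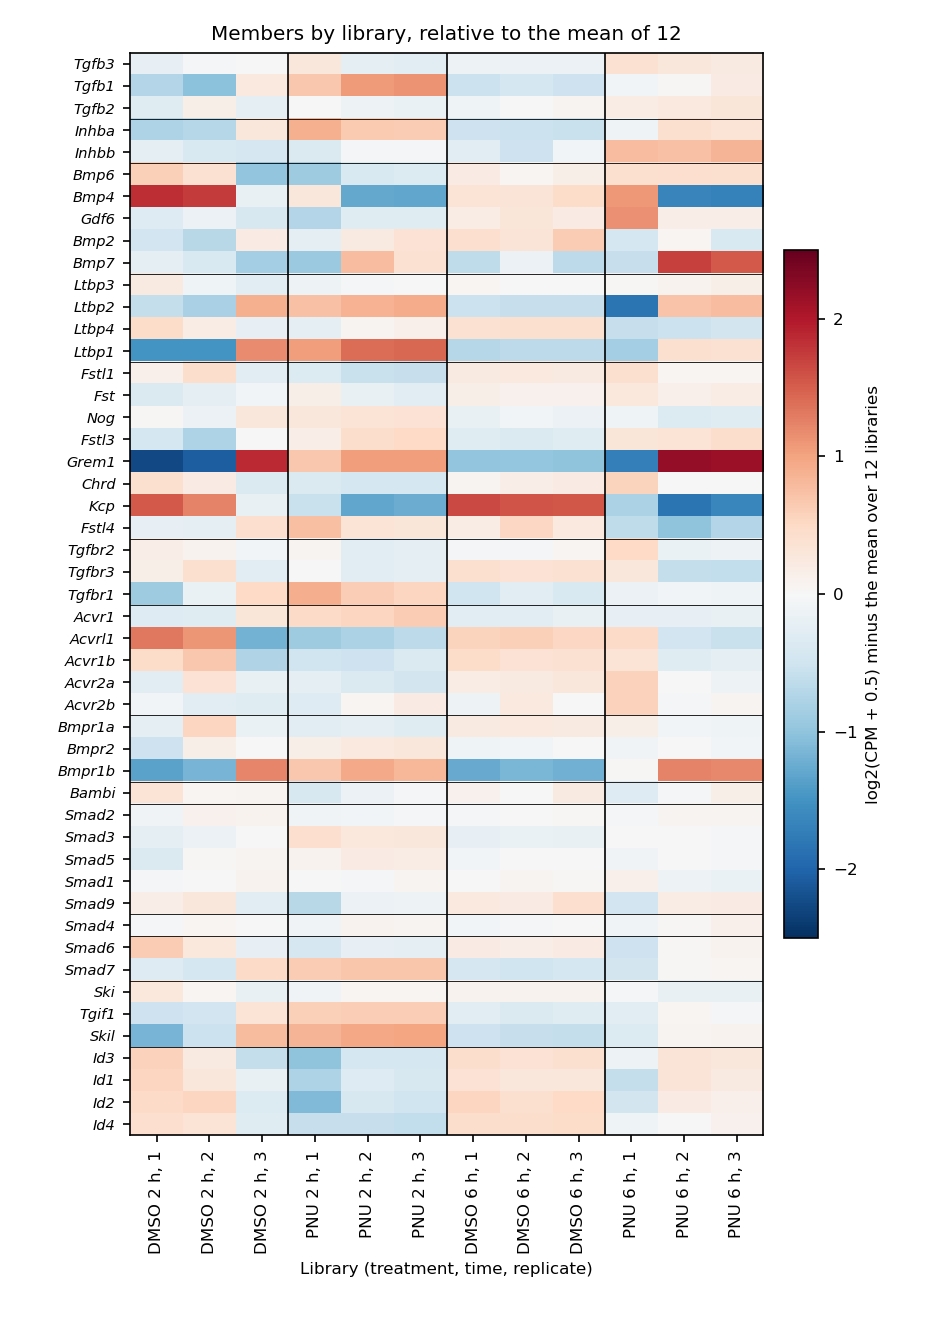
Level of each tested member in each library as the difference in log2(CPM + 0.5) from that member's mean over all 12 libraries (colour), with members in rows by role and libraries in columns by group. In the column of DMSO at 2 h replicate 3, Ltbp1, Skil and Acvrl1 have the colour of the PNU columns of that time, and in PNU at 6 h replicate 1 Bmp4, Grem1 and Ltbp1 differ from replicates 2 and 3.

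The PNU effect itself was compared between the times. No member passed (0 of 49, edgeR; 0.0350% of all genes passed), 10 members stood at an unadjusted p under 0.05 (20.4%, against 11.3% of all genes), and DESeq2 called 2, Inhbb and Fstl4, with 0.729% of all genes. For Fstl4 the log2 difference between the effects, 6 h minus 2 h, was -2.74 ± 0.50 (edgeR, adjusted p = 0.0886), and for Inhbb it was 0.91 ± 0.22 (adjusted p = 0.182). For Smad3, which passed at 2 h and not at 6 h, it was -0.29 ± 0.11 (adjusted p = 0.365), and for Ltbp4 -0.75 ± 0.21 (adjusted p = 0.235). Without both libraries that stand apart 26 members passed, along with 21.8% of all genes. Without replicate 3 of DMSO at 2 h alone, 20 members did, along with 16.7% of all genes.

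Between 2 h and 6 h in DMSO, 0 of 49 members passed in edgeR and 0 in DESeq2, as did 0% of all genes in edgeR and 0.0582% in DESeq2, and 3 members stood at an unadjusted p under 0.05 (against 4.77% of all genes). In PNU 13 of 49 passed in edgeR, or 26.5%, against 16.1% of all genes (7.42% higher and 8.66% lower at 6 h). At an unadjusted p under 0.05 stood 24 (49.0%), against 35.1% of all genes. DESeq2 called 17, with 11.8% of the genes it was run on. Higher at 6 h were Gdf6, Inhbb, Fstl1 and Id4, and lower were Fstl4, Tgfb1, Tgfbr1, Smad7, Acvr1, Tgif1, Nog, Ltbp4 and Smad3. In this comparison the libraries of a time did not overlap for 28 members, 57.1% against 51.7% of all genes. The PNU libraries are the same as in the comparisons above, so Smad3, Inhbb, Fstl4 and Ltbp4, which passed in both kinds, are not independent observations.

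Between 2 h and 6 h in PNU, the log2 rises were 1.21 ± 0.30 for Gdf6, 0.94 ± 0.15 for Inhbb, 0.60 ± 0.15 for Fstl1 and 0.57 ± 0.17 for Id4 (edgeR, adjusted p = 0.0250, 0.00621, 0.0258 and 0.0434). Gdf6, a BMP-type ligand, stood at 0.928, 1.41 and 1.41 CPM at 2 h and at 4.74, 2.16 and 2.15 CPM at 6 h, where replicate 1 was the highest. In the DMSO libraries Gdf6 stood at 1.39, 1.64 and 1.30 CPM and then at 2.19, 2.40 and 2.22 CPM, also apart. Tgfb1, Tgfbr1 and Smad7, a ligand, its receptor and an inhibitor of that receptor, fell by 0.98 ± 0.27, 0.89 ± 0.26 and 0.85 ± 0.21 (adjusted p = 0.0345, 0.0430 and 0.0256). Acvr1, Tgif1 and Nog fell by 0.82 ± 0.14, 0.75 ± 0.19 and 0.64 ± 0.12 (adjusted p = 0.00729, 0.0252 and 0.00876).

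Nog stood at 37.4, 38.7 and 39.2 CPM in PNU at 2 h and 28.5, 24.1 and 24.7 CPM at 6 h, and at 31.2, 27.3 and 37.1 and then 26.9, 28.9 and 27.4 CPM in DMSO. Its PNU libraries were apart between the times and its DMSO libraries overlapped. Fstl4 fell by 2.35 ± 0.37, Ltbp4 by 0.58 ± 0.15 and Smad3 by 0.39 ± 0.08 (edgeR, adjusted p = 0.00540, 0.0269 and 0.0108). Acvr1, Fstl4, Inhbb, Nog and Smad3 passed in 19 of 20 alternatives, all but the one with near-identical libraries summed, in which no member passed and 11 stood at an unadjusted p under 0.05 (12.2% of all genes did). Calls of the other members were lost more often: Gdf6 passed in 15 of 20 alternatives, Fstl1 and Ltbp4 in 14, Tgif1 in 13, Smad7 in 12, and Tgfb1, Tgfbr1 and Id4 in 9. The count of members called was 5 without replicate 2 or without replicate 3 of PNU at 2 h, 8 without replicate 1, and 6 without any 1 PNU library at 6 h, in fits where 3.21% to 9.71% of all genes passed. Without both libraries that stand apart it was 30, with 35.4% of all genes.

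**Figure D5:**
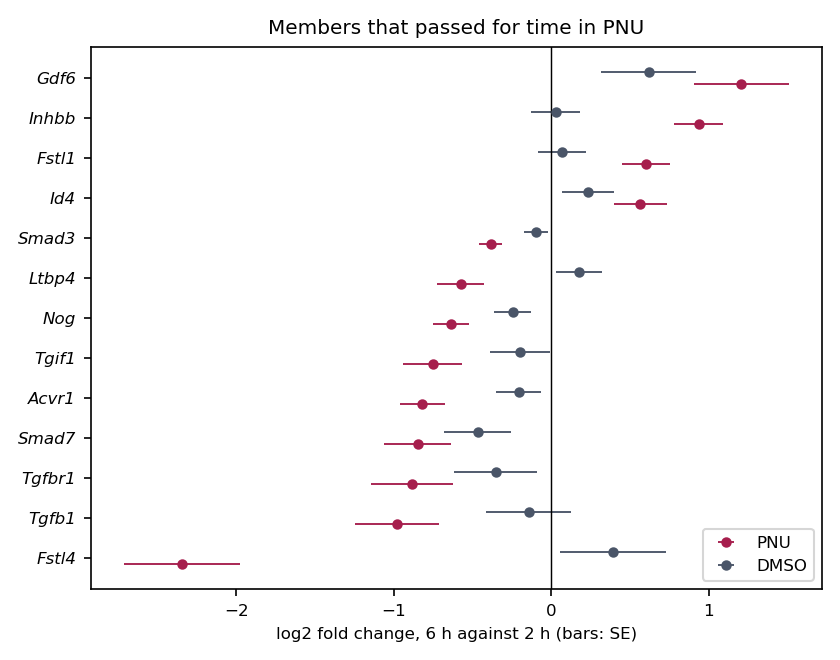
Log2 difference between 6 h and 2 h (horizontal, bars for the standard error) in PNU and in DMSO, for the 13 members (rows) that passed in PNU at an adjusted p under 0.05. Fstl4, at -2.35 in PNU, lies farthest to the left, and no DMSO mark passed.

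A further list of 89 genes of the same pathways was fixed by role (other ligands, receptors, regulators and target genes), and 70 of them were tested. At 2 h 0 passed in edgeR, 13 in DESeq2 (7.40% of all genes did), and 27 stood at an unadjusted p under 0.05 (38.6%, against 30.0% of all genes). At 6 h 1 passed in edgeR (1.43%, against 1.05% of all genes) and 12 in DESeq2 (2.65% of all genes did). At an unadjusted p under 0.05 stood 27 at 6 h (38.6%, against 15.6% of all genes). The gene that passed in edgeR was Dcn, decorin, a matrix proteoglycan that binds TGF-beta and is also 1 of the fibroblast markers above. Dcn stood at 52.1, 54.6 and 54.5 CPM in DMSO at 6 h and at 15.8, 29.1 and 28.5 CPM in PNU, and fell by 1.12 ± 0.23 on the log2 scale (edgeR, adjusted p = 0.0467). Of 17 TGF-beta and activin targets, 6 were higher and 0 lower in PNU at an unadjusted p under 0.05 at 2 h (35.3%, against 30.0% of all genes), and 6 and 5 at 6 h (64.7%, against 15.6%). Of 8 BMP targets outside the Id family, 2 were higher and 1 lower at each time (37.5%). The 2 h shares of both lists are near that of all genes.

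Between 2 h and 6 h in PNU, 11 of the 70 genes passed, 3 higher and 8 lower, a share of 15.7% that is near the 16.1% of all genes. Those with the largest changes were Bhlhe40, a transcription factor, which fell by 1.97 ± 0.43, Bmp8a, a BMP ligand, by 1.28 ± 0.36, Runx2, a bone transcription factor, by 1.07 ± 0.13, and Tgfbi, a TGF-beta-induced matrix protein, by 0.86 ± 0.25. Runx2 stood at 64.8, 64.6 and 66.6 CPM and then at 31.0, 32.7 and 33.5 CPM in PNU, and at 37.9, 40.8 and 57.5 and then 40.5, 41.8 and 44.2 CPM in DMSO. In edgeR 0 genes of this list passed over time in DMSO, and 4 stood at an unadjusted p under 0.05 (5.71%, against 4.77% of all genes). For the difference between the PNU effects 0 passed, and 10 stood at an unadjusted p under 0.05 (14.3%, against 11.3%). DESeq2 called 1 (Dcn, higher at 6 h in DMSO) and 4, with 0.0582% and 0.729% of the genes it was run on.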

How the data were processed

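Poly(A) RNA was sequenced as read pairs of 150 bp. Per the labels' protocols, trimming used fastp 0.23.2, alignment to GRCm38 used STAR 2.5.2b, and featureCounts (Subread 1.5.2) gave the counts. The authors deposited raw whole-number counts for each gene in 12 separate tables, without normalization. DESeq2 is named in the submitters' processing notes, with no role. Strand and multi-mapping settings are not given in the sources used here. Exons of 15 members share bases with another gene.

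The test was edgeR 4.0.16 (R 4.3.3), on genes kept by filterByExpr (17164, with 49 of 51 members), TMM scaling, 1 robust quasi-likelihood model over 12 libraries with 4 group means, and Benjamini-Hochberg adjustment over all genes tested, at a threshold of 0.05. Standard errors of log2 differences come from the test's F value (size over root F). CPM uses the total of all genes, and symbols were matched for 48970 identifiers. The 2 members not tested are Gdf5 and Gdf10. The pipeline was tested on simulated data.

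The members and lists were chosen with earlier results of these data known. Values per library are given for members that passed in any of 5 contrasts and for a fixed set covering each role; from the further list, up to 4 passing genes per contrast with the largest change and at least 1 CPM in the higher group are named. Alternatives were RLE scaling, DESeq2 1.42.0, no filter, a stricter filter (1 CPM in 3 libraries), the libraries of a contrast alone, a replicate block, near-identical libraries (coefficient of variation under 0.05) summed, both libraries that stand apart left out, and each library left out in turn.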

Additional observations from a re-analysis of the deposited data

How the results depend on the processing

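The counts of members called depended on the libraries used. The RLE scaling and the stricter filter kept every count of the 5 comparisons within 1.5 times. At 2 h, in place of 1, the count was 16 with DESeq2, 4 with no filter, 7 with the replicate block, 0 with the libraries of the contrast alone, 0 with near-identical libraries summed and 36 without both libraries that stand apart. Leaving out 1 library gave 0 to 30 (30 without DMSO at 2 h replicate 3, 7 without PNU at 6 h replicate 1, 1 without PNU at 2 h replicate 1, 0 without any other). At 6 h, in place of 4, it was 7 with DESeq2, 16 with the libraries of the contrast alone, 0 with near-identical libraries summed and 24 without both libraries; leaving out 1 library gave 0 to 12 (12 without DMSO at 2 h replicate 3, 7 without PNU at 6 h replicate 1, 0 without DMSO at 6 h replicate 2, and 1 without DMSO at 6 h replicate 1 or 3 or PNU at 6 h replicate 2 or 3). For the difference between the PNU effects, in place of 0, it was 2 with DESeq2, 1 with no filter and 26 without both libraries, and leaving out 1 library gave 0 to 20. For time in DMSO, 4 members passed without both libraries and 0 when any 1 was left out. For time in PNU, in place of 13, 23 passed with the libraries of the contrast alone, 0 with near-identical libraries summed and 30 without both libraries, and leaving out 1 library gave 5 to 23 (23 without DMSO at 2 h replicate 3). The share of all genes that passed moved as well. At 2 h it was 0.427% with no filter, 43.8% without DMSO at 2 h replicate 3 and 2.77% without PNU at 6 h replicate 1. At 6 h it was 10.1% with the libraries of the contrast alone, and 9.10% and 6.00% without the same 2 libraries in turn. For time in DMSO it was 0.672% without both. For time in PNU it was 32.1% with the libraries of the contrast alone and 34.2% without DMSO at 2 h replicate 3. The cause of these shifts was not tested, except that summing leaves 1 unit in DMSO at 6 h and so fewer samples.

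Whether the replicate numbers pair the libraries could not be settled. Deviations of same-numbered libraries correlated at -0.30 to 0.40 over 18 pairs (median 0.01), with 4 pairs over 0.1. Those of differently numbered libraries correlated at -0.51 to 0.43 over 36 pairs (median 0.0004), with 2 over 0.1. The DMSO libraries at 6 h were near-identical, so their small deviations cannot show a pairing. With the replicate block the counts were 7, 5, 0, 0 and 14 for the 5 comparisons in the order above. The shares of all genes were 1.81%, 1.72%, 0%, 0% and 16.6%. The direction was reversed for Tgfb3 at 2 h without PNU at 2 h replicate 1 (log2 -0.14, range over libraries left out -0.14 to 0.17), for Bmpr2 at 6 h without DMSO at 6 h replicate 1 (-0.0017, range -0.0017 to 0.0490) and for Tgfbr2 at 6 h without PNU at 6 h replicate 1 or without both libraries that stand apart (-0.13 in each, range over libraries left out -0.13 to 0.24), none of which passed in any of these fits. Of the other values of single genes under an alternative, 1037 kept their direction and side of the threshold, 78 passed only under the alternative and 101 no longer did. Depth limits Gdf5, Gdf10 and Bmp7, which stood near the floor of 3 counts in some libraries.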
